A study of Mus musculus with 6 samples.

Results

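The nuclei described here are the 174 that the study's authors annotated as endothelial in a droplet library from mouse brain that had been formalin-fixed and embedded in paraffin (FFPE), taken from the annotation deposited with the counts and set against all other annotated nuclei of the same library. They are 2.47% of 7031 annotated nuclei (95% exact binomial interval 2.12% to 2.87%). The library is labelled as mouse cortex of C57BL/6J animals, 8 to 12 weeks of age. Nuclei came from 50 µm scrolls after removal of the paraffin, and no treatment or mutation is labelled. The labels give neither the number of animals nor their sex. A second readout came from nuclei of the same labelled tissue, strain and age that were sorted into plates and read with SMART-Seq2, a full-length chemistry, in batches 1 and 2.

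Endothelial cells line every blood vessel. In the brain they form the blood-brain barrier: they are sealed by tight junctions, carry nutrients through solute carriers and pump out foreign compounds with ABC transporters. Their identity is kept by VEGF and angiopoietin receptors, by Wnt signals from the surrounding tissue and by ETS-family transcription factors. Pericytes and smooth muscle cells, together called mural cells, share the vessel's basement membrane with them.

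The library is a single sample, so no test between classes was possible. All intervals below cover counting error only. A level is the unique molecular identifiers (UMIs, each marking 1 captured molecule) of a gene summed over the nuclei of a class, per 1000000 UMIs of that class (CPM). The endothelial nuclei held 56597 UMIs, 2.17% of the 2605198 in the library, and 1 UMI stood for 17.7 CPM. Each held 238 to 634 UMIs (median 301.5) on 220 to 513 genes (median 262). The other nuclei had medians of 326 UMIs and 277 genes. At such depth a nucleus shows a small sample of its RNA, and a gene missing from a nucleus was not detectable there rather than absent. The annotation was made from the same counts, so the levels of genes in the class against the rest are descriptions and support nothing.

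The marker genes named for the class were many times higher in it than elsewhere, yet each was seen in a minority of its nuclei. Flt1 encodes a receptor for VEGF. It gave 39 UMIs in 33 endothelial nuclei (18.97%), a level of 689 CPM (95% exact Poisson interval 490 to 942), against 20.01 CPM in the other nuclei. Mecom, a zinc-finger transcription factor, gave 23 UMIs in 17 nuclei (9.77%), or 406 CPM against 7.85 CPM. Nostrin, which regulates traffic of endothelial nitric oxide synthase, gave 15 UMIs in 13 nuclei (7.47%), or 265 CPM, against 4 UMIs in the 6857 other nuclei. At least 1 of these 3 genes was seen in 49 endothelial nuclei (28.2%) and in 75 other nuclei (1.09%).

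In no other class was the measured level of a marker near these. The highest level of Flt1 elsewhere was 61.5 CPM, from 5 UMIs in a neuronal class that the authors named ExNeuron6. Oligodendrocytes, the myelin-forming cells, had a similar median depth of 314 UMIs, and 3 of 298 (1.01%) held an Flt1 UMI. Microglia and fibroblasts gave 0 UMIs of all 3 genes. Their depth allows up to 102 CPM in microglia and 151 CPM in fibroblasts, taking 3 UMIs as the limit of a count of 0. By exact Poisson intervals the limits are 126 and 186 CPM. The latter lies within the endothelial interval of Nostrin, 148 to 437 CPM. With every nucleus thinned to 250 UMIs, which left out 8 endothelial and 175 other nuclei, an Flt1 UMI remained in 13.3% of endothelial nuclei and in 0.599% of the others. Mecom then stood at 9.64% against 0.254%, and Nostrin at 6.63% against 0.0299%.

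**Figure D1:**
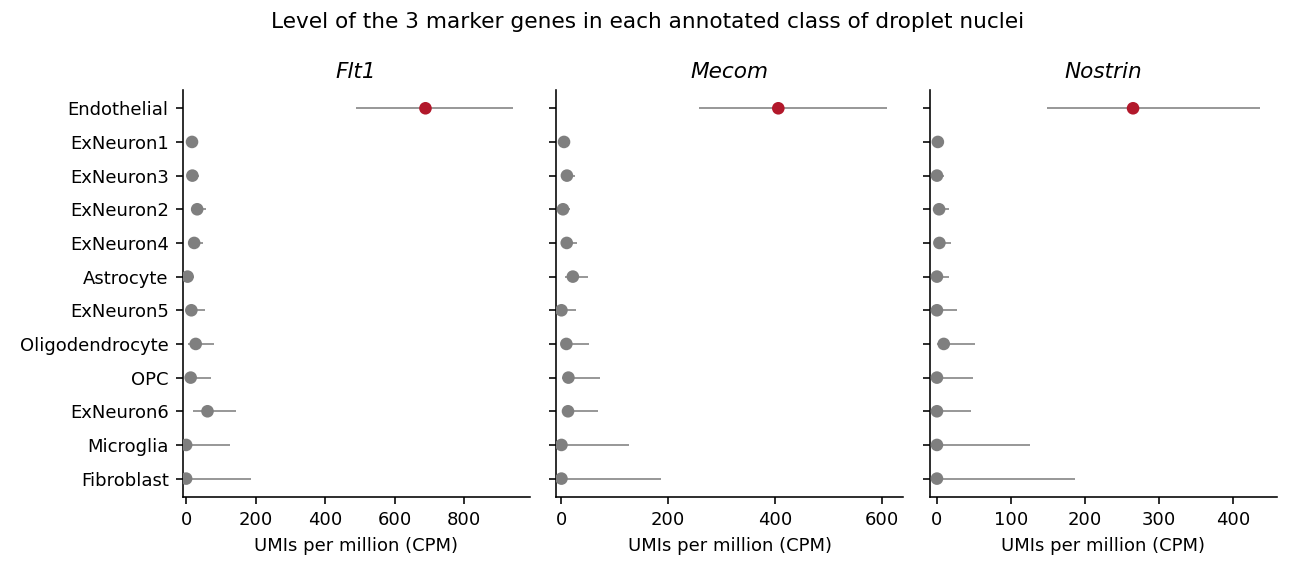
Level of Flt1, Mecom and Nostrin (CPM, horizontal axis) in each annotated class of droplet nuclei, with 95% exact Poisson intervals as lines and the endothelial class in red. The endothelial points sit at 689, 406 and 265 CPM, and the highest point of another class, Flt1 in ExNeuron6, is at 61.5 CPM.

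Beyond the named markers, a list of 28 endothelial marker genes was summed as a description of the class. Of the 27 in the droplet table, 26 had a UMI in the class and a level above that of the other nuclei. Cdh5, the cadherin of endothelial junctions, had 0 endothelial UMIs, which allows up to 53.0 CPM. Together the list stood at 5195 CPM (4618 to 5824) in endothelial nuclei and at 284 CPM (264 to 306) in the others, a ratio of 18.3 (15.9 to 20.9). Across the other 11 classes the list ran from 150.0 CPM in ExNeuron5 to 454 CPM in fibroblasts. A list UMI was present in 115 endothelial nuclei (66.1%), in 9.87% of other nuclei and in 13.1% of oligodendrocytes. After thinning to 250 UMIs the shares were 60.2%, 7.30% and 10.3%. The list holds the 3 markers above and was read in the counts that the annotation used, so these values describe the class and do not test its label.

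The nuclei of the class were uneven in this signal. The median endothelial nucleus held 1 list UMI and the highest held 10. No list UMI was seen in 59 of them. At 3 or more list UMIs there were 42 endothelial nuclei and 4 nuclei of other classes, and no nucleus outside the class held more than 3.

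Seen gene by gene, 41 of 10601 genes with at least 20 UMIs in the library were at least 4-fold higher in endothelial nuclei, with 10 or more UMIs there, which is 0.387% of the genes. Among the 1206 genes that had 10 or more endothelial UMIs the share was 3.40%. Since the annotation rested on these counts, nothing is read from either share. The median ratio over all genes compared was 0.96 with zeros kept as 0, and 1.30 with a group at 0 set to 3 UMIs. The 41 genes together gave 870 UMIs, 1.54% of the class's UMIs against 0.154% in the other nuclei. For 31 of them the lower bound of the ratio's interval was itself 4 or more. For 39 the endothelial class had the highest level of the 12 classes, and for 16 fibroblasts came next. A UMI of at least 1 of the 41 was found in 164 endothelial nuclei (94.3%), with a median of 4 and a maximum of 24, and in 42.0% of the others. Of the 41, 13 belong to the endothelial list, 3 to the mural list and 25 to neither.

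**Figure D2:**
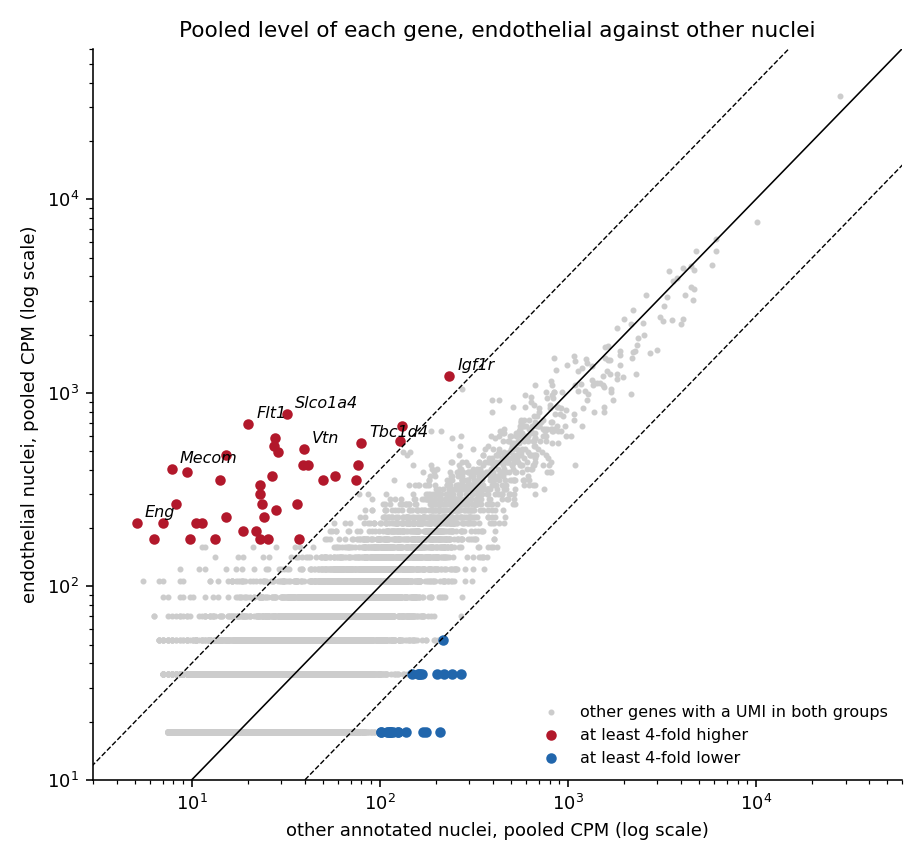
Pooled level of each gene with 20 or more UMIs and at least 1 in both groups: other annotated nuclei on the horizontal axis and endothelial nuclei on the vertical axis, both in CPM on log scales, with equality as a solid line and 4-fold differences as dashed lines. The 41 higher genes (red) lie between 4.39 and 51.8 times the level in other nuclei, and the 24 lower genes (blue) lie in the bottom rows, where a point is 1 to 3 endothelial UMIs.

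After Mecom, whose ratio was 51.8 (27.2 to 99.4), stood endoglin, Eng, a TGF-beta co-receptor, at 12 UMIs and a ratio of 41.6 (17.3 to 98.8). Adgrl4, an adhesion G protein-coupled receptor, had 22 UMIs in 21 nuclei and a ratio of 41.3 (22.1 to 76.9). Flt1 followed at 34.4 (22.1 to 53.3). This order depends on the setting. Against the unweighted mean of the other classes Mecom was at 53.3, Flt1 at 35.9, Adgrl4 at 29.5 and Eng at 25.1. Mecom was at 30.6 without endothelial nuclei holding a mural UMI. With only the own cluster Mecom was at 108 and Flt1 at 71.2. Tek, which encodes the angiopoietin receptor Tie2, was at 13.2 with 10 UMIs. Ptprb, the phosphatase that acts on Tie2 and on VE-cadherin, was at 18.6 with 12 UMIs. Adgrf5, another adhesion receptor, was at 20.01 with 12 UMIs. Of the 13 genes listed for VEGF and angiopoietin signalling, 3 (Flt1, Tek and Ptprb) passed the 4-fold rule, beside 0.387% of all genes compared, and the list as a whole was 5.83 times as high (4.55 to 7.38). It stood at 1396 CPM, against 808 CPM in fibroblasts. After thinning, and in the own cluster described further on, Tek and Ptprb fell under a minimum on UMIs and no longer counted. Vegfa, the ligand that neighbouring cells secrete, gave 2 endothelial UMIs and 133 in the other nuclei, a ratio of 0.68 that rests on 2 UMIs.

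Transporters of the blood-brain barrier formed a large group. Of the 22 genes listed, 8 were at least 4-fold higher, beside 0.387% of all genes compared, and the list stood at 4347 CPM against 705 CPM, a ratio of 6.17 (5.38 to 7.05). Fibroblasts were at 1262 CPM. Abcb1a, Slc22a8 and Slc2a1 no longer counted after thinning, nor did Car4, Slc22a8 and Slc2a1 with only the nuclei of the own cluster. Slco1a4, an organic anion transporter of the barrier, was the most often seen, with 44 UMIs in 39 nuclei (22.4%). Its level was 777 CPM against 32.2 CPM, a ratio of 24.2 (16.4 to 35.3). The efflux pumps Abcb1a, which encodes a P-glycoprotein, and Abcg2 had ratios of 30.02 with 12 UMIs and 19.3 with 30 UMIs. Abcb1a was at 12.7 without endothelial nuclei holding a mural UMI, and Abcg2 at 11.4 against the unweighted mean of the other classes. Atp10a, a phospholipid flippase, was at 25.02 with 20 UMIs.

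Thyroid hormone and organic anion carriers belonged to the same group. Slco1c1, which carries thyroid hormone, was at 13.9 with 21 UMIs. It is also made by astrocytes, which gave 32 UMIs and the next highest level, 137 CPM. Slc22a8 was at 10.3, the glucose transporter gene Slc2a1 at 8.85 and the carbonic anhydrase gene Car4 at 4.74. Members below the rule included Insr, the insulin receptor, with 15 UMIs and a ratio of 2.55, and Slc6a6, the taurine transporter, with 28 UMIs and 3.40. Mfsd2a, a lipid transporter, had 1 endothelial UMI and 9 elsewhere. Tfrc, the transferrin receptor, had 3 UMIs and a ratio of 1.01 (0.205 to 3.01).

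The list of endothelial cell contacts, which holds tight junction and adhesion genes, was higher as a sum. No member passed the rule over all endothelial nuclei, beside 0.387% of all genes compared. Its 12 genes in the table stood at 1449 CPM against 349 CPM, a ratio of 4.15 (3.27 to 5.21), and fibroblasts had them at 959 CPM. Cldn5, the main claudin of the barrier, had 7 UMIs and a ratio of 11.3 (4.15 to 26.4), under the minimum of 10 UMIs. Pecam1, an adhesion molecule of endothelial contacts, also had 7 UMIs. Tjp1, the scaffold that ties junctions to actin, had 36 of the list's 82 endothelial UMIs and a ratio of 2.99. With only the endothelial nuclei of the own cluster, Tjp1 did pass. Jup, the junction protein plakoglobin, is not on the list and passed the rule at 4.74 with 10 UMIs. After thinning Jup was at 3.605 and no longer counted. Nor did it count without the 10% deepest endothelial nuclei or with only the own cluster.

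The 20 transcription factors listed gave 85 endothelial UMIs, of which Mecom gave 23 and Epas1 24, and 6 of the 20 gave none. They summed to 1502 CPM against 142 CPM, a ratio of 10.6 (8.25 to 13.4). Mecom and Epas1, the hypoxia-inducible factor HIF-2alpha, passed the rule, as did 0.387% of all genes compared, with Epas1 at 10.8 (6.62 to 17.0). The ETS-family factors Fli1, Ets1, Elk3 and Erg gave 6, 5, 4 and 3 endothelial UMIs and 22, 10, 14 and 5 in the other nuclei. As levels their ratios were 12.3, 22.5, 12.9 and 27.0. Ets2, of the same family, gave 0 against 91. That allows up to 53.0 CPM, against 35.7 CPM in the other nuclei, so no direction is measured. Of the 17 genes listed for Wnt signalling at the barrier, Lef1 alone passed, beside the same 0.387%. Lef1 is the transcription factor that acts with beta-catenin, and it had 13 UMIs in 12 nuclei and a ratio of 15.01 (7.35 to 28.7). Fzd4, the receptor that receives the barrier's Norrin signal, had 6 UMIs against 23, a ratio of 11.7. Among 15 TGF-beta and BMP genes, Eng alone passed, again beside 0.387%. After thinning, Lef1 and Eng fell under a minimum on UMIs and no longer counted. Fibroblasts had the Wnt list at 1060 CPM against 1131 CPM in the endothelial class, and the TGF-beta and BMP list at 1867 CPM against 1148 CPM.

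Markers of vessel type were near the limit of detection. Of 12 artery genes 6 had no endothelial UMI, and of 11 vein genes 6 had none. No gene of either list passed the rule. Only 0.387% of all genes compared did, so nothing is read from this. The summed ratios were 1.73 (0.913 to 3.00) for artery and 1.64 (0.840 to 2.91) for vein genes, intervals that include equality. The 7 capillary genes stood at 1254 CPM against 448 CPM, a ratio of 2.80 (2.17 to 3.56). Of these Car4 alone passed, beside 0.387% of all genes compared. It no longer counted with only the nuclei of the own cluster. Notch genes summed to 10 UMIs, with a ratio of 2.12 (1.00 to 3.98). At this depth the nuclei could not be assigned to arteries, capillaries or veins.

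The remaining higher genes were of several kinds. Of 13 basement membrane genes, Sparc, a collagen-binding matrix protein, passed at 5.54 (3.47 to 8.49), beside 0.387% of all genes compared, and the list was at 4.93 (3.81 to 6.30). Fibroblasts had the basement membrane list at 1161 CPM, close to the 1272 CPM of the endothelial class. Hmcn1, a large matrix protein, was at 32.2 with 15 UMIs. Its level was 265 CPM, against 202 CPM (55.0 to 517) in fibroblasts, and against the unweighted mean of the other classes its ratio was 10.6. Igfbp7, a secreted protein that binds insulin-like growth factors, was at 31.2 with 27 UMIs in 26 nuclei. Pltp, the phospholipid transfer protein, had 33 UMIs and a ratio of 20.9. Its level was 583 CPM, against 303 CPM (111 to 659) in fibroblasts, and against the unweighted mean its ratio was 11.01. Igf1r, the receptor for insulin-like growth factor 1, had the most UMIs of the 41 genes, 69 in 46 nuclei (26.4%), and a ratio of 5.20 (3.99 to 6.67). Its level was 1219 CPM, against 656 CPM, from 13 UMIs, in fibroblasts. Kitl, which encodes stem cell factor, was at 7.09, and Sema3c, a secreted guidance cue, at 6.39. Other genes among the 25 highest ratios were Prkch, a protein kinase C, at 28.1, and Ly6a, the surface protein Sca-1, at 18.01. Neither counted after thinning, without the 10% deepest endothelial nuclei or with only the own cluster. The rest were Ccdc141 at 14.5, Pdgfd, a growth factor of the PDGF family, at 13.0, and Cobll1 at 11.3. Pdgfd stood at 300 CPM, against 202 CPM in fibroblasts. Cobll1 stood at 265 CPM, against 222 CPM in oligodendrocyte precursors. Against the unweighted mean their ratios were 7.25 and 6.90.

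**Figure D3:**
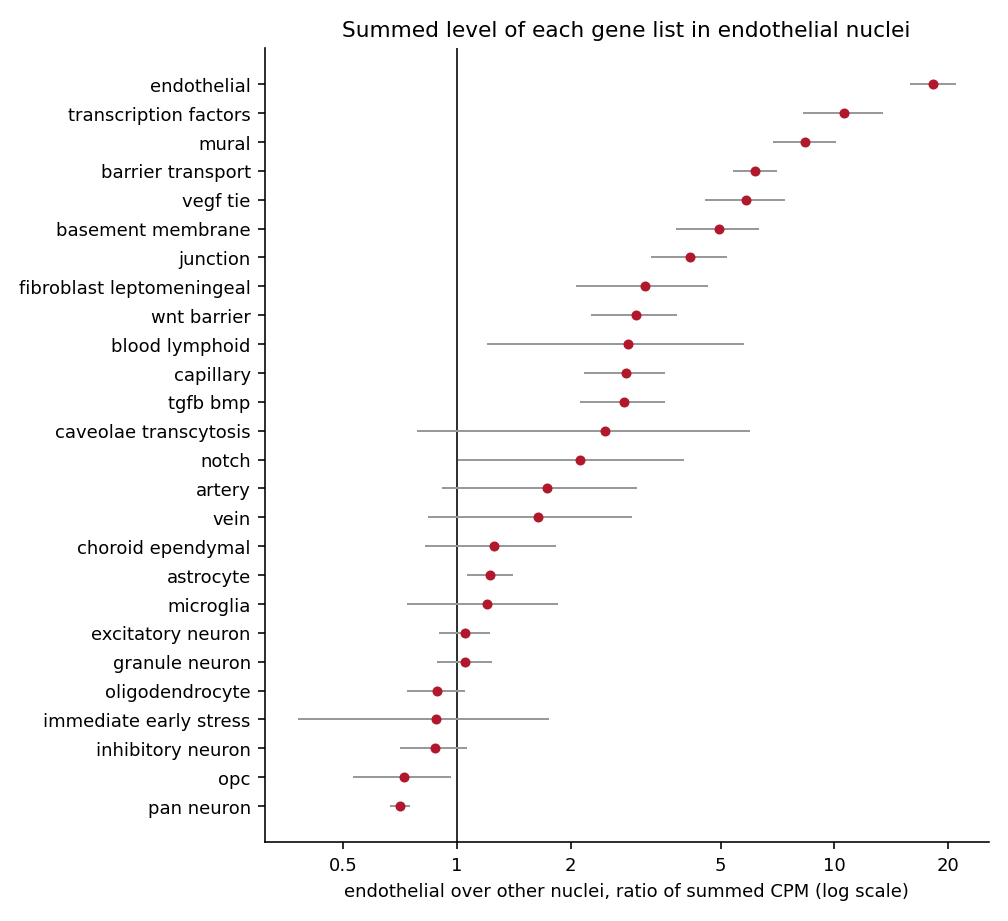
Ratio of the summed level of each of 26 gene lists in endothelial over other nuclei (log scale), with the 95% exact interval for counting error as a line and equality at 1. The endothelial list is highest at 18.3, transcription factors and mural genes follow at 10.6 and 8.35, and the pan-neuronal list is lowest at 0.71.

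Mural genes were also high in the endothelial nuclei. The 15 mural genes summed to 128 UMIs, or 2262 CPM (1887 to 2689), against 271 CPM in the other nuclei, a ratio of 8.35 (6.86 to 10.1). Rgs5, a regulator of G protein signalling known from pericytes, had 28 UMIs in 24 nuclei (13.8%) and a ratio of 17.3 (10.8 to 27.0). Vtn, the adhesive protein vitronectin, had 29 UMIs in 20 nuclei and a ratio of 12.9, while its highest level was in fibroblasts, 858 CPM against 512 CPM in the endothelial class. Against the unweighted mean of the other classes the ratio of Vtn was 4.79. Ebf1, a transcription factor of several vessel-associated and blood cells, had 38 UMIs in 30 nuclei and a ratio of 5.12. These 3 of the 15 passed the rule, beside 0.387% of all genes compared, and Pdgfrb, the PDGF receptor of pericytes, had 8 UMIs against 34 (ratio 10.6). The smooth muscle genes Acta2 and Tagln had 0 endothelial UMIs, and Myh11 had 1. The next highest class for the summed list was fibroblasts, at 1665 CPM.

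A mural UMI was present in 70 endothelial nuclei (40.2%), against 8.90% of other nuclei and 7.72% of oligodendrocytes. After thinning it was present in 34.3% of endothelial nuclei and in 6.72% of the others. UMIs of both lists were found in 49 nuclei of the class, of the endothelial list alone in 66, of the mural list alone in 21 and of neither in 38. An endothelial list UMI was present in 70% of the nuclei with a mural UMI and in 63.5% of those without one. The 70 nuclei with a mural UMI had the endothelial list at 6621 CPM (5617 to 7754), and the 104 without one had it at 4199 CPM (3533 to 4955). Median depth was 311.5 UMIs in the former and 296 in the latter. The part of mural cells in the class was not tested. Without the nuclei that held a mural UMI, 33 of the 41 genes were still at a ratio of 4 or more. The full rule, with its minimum of 10 UMIs in fewer nuclei, was passed by 15 genes, 14 of them among the 41. The 8 genes below a ratio of 4 include Rgs5, Vtn and Ebf1, whose endothelial UMIs this step removes.

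**Figure D4:**
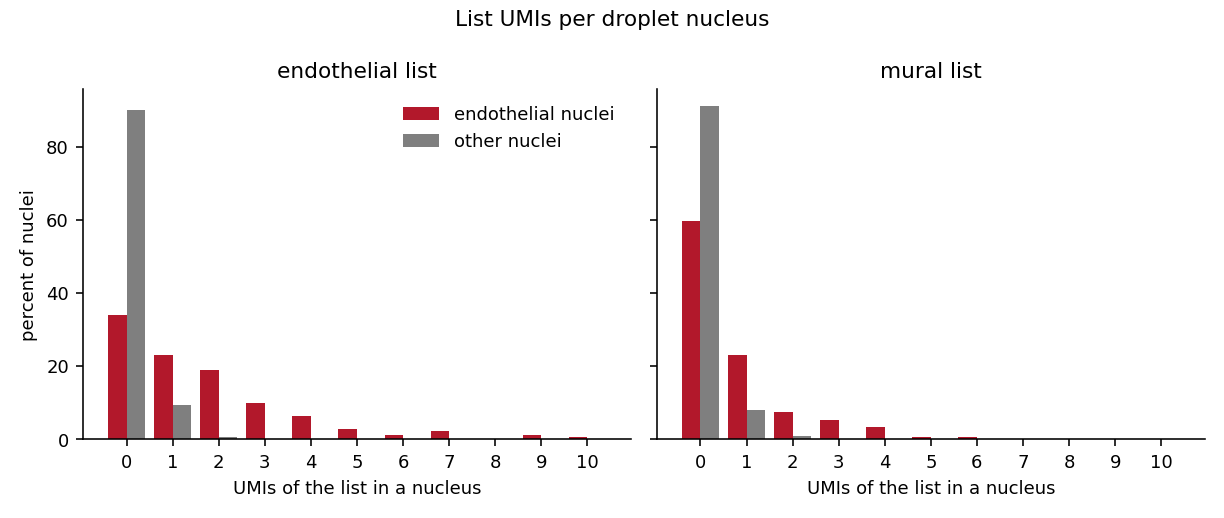
Percent of nuclei (vertical axis) with each number of UMIs of the endothelial list (left) and of the mural list (right), for endothelial nuclei in red and other nuclei in grey. No list UMI was seen in 33.9% of endothelial and 90.1% of other nuclei for the endothelial list, and the red bars reach 10 UMIs while the grey bars end at 3.

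Lists of other cell types ranged from below to above the rest of the library. Leptomeningeal fibroblast genes stood at 495 CPM against 157 CPM (ratio 3.14, 2.06 to 4.61), far under the 6359 CPM of the fibroblast class. Of their 15 genes, Dcn, Col1a1, Lum, Slc6a13 and Slc22a6 had no endothelial UMI. Microglial genes had a ratio of 1.20 (0.740 to 1.85), oligodendrocyte genes 0.88 (0.740 to 1.05), choroid plexus and ependymal genes 1.25 (0.822 to 1.84) and astrocyte genes 1.23 (1.06 to 1.41). Blood and lymphoid genes gave 8 UMIs in 4 endothelial nuclei, 141 CPM against 49.8 CPM, a ratio of 2.84 (1.20 to 5.76), and stood highest in oligodendrocyte precursors (OPC), at 261 CPM. OPC genes had a ratio of 0.72 (0.530 to 0.963).

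Neuronal RNA was present in nearly every endothelial nucleus. The 8 pan-neuronal genes stood at 19577 CPM, against 27662 CPM over the other nuclei, and a UMI of them was found in 171 of 174 endothelial nuclei (98.3%). Microglia, at 19593 CPM, and oligodendrocytes, at 17617 CPM, carried a similar amount. Its source was not tested.

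By the same fold, 24 genes with at least 100 CPM in the other nuclei were at least 4-fold lower, 0.226% of all genes compared and 1.18% of the 2039 at that level. Each rested on 1 to 3 endothelial UMIs, so the intervals are wide and the ratios imprecise. The count was 39 after thinning, 38 without the 10% deepest endothelial nuclei, 49 without those holding a mural UMI and 52 with only those of the own cluster. Tmem132d, a membrane protein gene, had 1 UMI against 535 and a ratio of 0.084 (0.0021 to 0.47). Kcnab1, a potassium channel subunit, had 2 against 689, with a ratio of 0.13 (0.016 to 0.47). The other 6 of the 8 lowest, Gas7, Me3, Arnt2, Ndufs1, Mbtd1 and Mtus2, had 1 or 2 endothelial UMIs and ratios between 0.10 and 0.15. Esrrg, Dzip3, Sars and Pdzrn4 had 0 endothelial UMIs and at least 100 CPM elsewhere. Set at 3 UMIs they fall outside the 4-fold rule: Esrrg was at least 3.76-fold lower, Dzip3 at least 2.41-fold, Sars at least 2.38-fold and Pdzrn4 at least 2.24-fold.

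Levels of different genes are set side by side here per length of gene; whether UMIs scale with length was not tested. Slco1a4 spans 50.8 kb and stood at 15.3 CPM per kb, Rgs5 at 12.3, Nostrin at 4.95, Flt1, over 164 kb, at 4.19, and Mecom, over 597 kb, at 0.68 CPM per kb. Vtn, a gene of 3.23 kb, stood at 158 CPM per kb. The 41 genes had a median length of 88.5 kb, against 113 kb for the 1165 other genes with 10 or more endothelial UMIs and 31.8 kb over all genes compared. On GRCm38 with the GENCODE M21 annotation, the protein-coding gene Flt1 lies on chromosome 5 from 147561604 to 147726011 on the minus strand, Mecom on chromosome 3 from 29951296 to 30548008 on the minus strand, and Nostrin on chromosome 2 from 69135800 to 69189330 on the plus strand. The 41 genes are spread over 17 chromosomes.

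Promoter sequence is shown for 3 of the genes because ETS-family factors act on endothelial promoters in general and the 41 genes were chosen together. Each is 300 bases of RefSeq's GRCm38.p6, 250 before and 50 after an annotated start, written 5′ to 3′ along the gene, with CAGGAAG or its reverse complement in capitals. Flt1 is chr5:147725962-147726261, minus strand. Adgrf5 is chr17:43360181-43360480, plus strand, one of 2 starts in the RefSeq table. Abcg2 is chr6:58596422-58596721, plus strand, one of 3 starts there. For both genes the start shown is the first that held a match, so it was chosen for the match.
Flt1: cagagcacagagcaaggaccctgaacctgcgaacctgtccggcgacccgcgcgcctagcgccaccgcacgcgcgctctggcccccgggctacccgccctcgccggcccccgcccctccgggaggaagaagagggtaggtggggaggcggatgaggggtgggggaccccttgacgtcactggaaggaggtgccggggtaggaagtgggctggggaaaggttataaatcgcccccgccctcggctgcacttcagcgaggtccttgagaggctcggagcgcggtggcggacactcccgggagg
Adgrf5: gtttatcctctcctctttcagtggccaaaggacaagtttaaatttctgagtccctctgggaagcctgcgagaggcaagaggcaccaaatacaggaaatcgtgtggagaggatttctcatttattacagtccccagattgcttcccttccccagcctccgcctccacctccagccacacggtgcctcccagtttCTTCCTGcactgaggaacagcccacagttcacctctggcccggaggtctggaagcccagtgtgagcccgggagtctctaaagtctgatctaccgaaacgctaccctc
Abcg2: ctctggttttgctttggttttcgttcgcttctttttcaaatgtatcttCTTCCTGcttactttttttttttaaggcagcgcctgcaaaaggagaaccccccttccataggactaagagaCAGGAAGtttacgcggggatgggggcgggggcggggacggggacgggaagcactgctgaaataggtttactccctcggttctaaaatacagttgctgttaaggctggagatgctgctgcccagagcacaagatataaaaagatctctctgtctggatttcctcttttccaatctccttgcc
CAGGAAG, searched on both strands, was found in a promoter of 7 of the 36 higher genes with an entry (19.4%), and in 13.5% of 8109 genes compared. CCGGAAG, a related form, was found in 2 of the 36 (5.56%), against 19.7%. These letters are matches and not shown to be bound, and the Flt1 window has none of either.

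By likeness of pattern over the 12 classes, 5 genes followed Flt1 most closely, measured as Pearson's r of log2(CPM + 10). They were Zfp667 (0.94), St8sia4 (0.93), Ubr3 (0.92), Kank3 (0.91) and Btbd8 (0.90). The points share 1 library, and Zfp667, Kank3 and Btbd8 had 3 to 6 endothelial UMIs.

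A second grouping of the droplet nuclei recovered the class in part. Clustered anew on 2000 variable genes, the library fell into 10 clusters, and the one with the most endothelial nuclei held 80 of the 174 (46.0%) among its 154. It also held 32 of the 47 nuclei annotated as fibroblasts and 42 of other classes. The other 94 endothelial nuclei lay in 8 clusters. Those inside had the endothelial list at 8700 CPM, with a list UMI in 91.2% of nuclei, and the pan-neuronal list at 15013 CPM. Those outside had 2221 CPM, a list UMI in 44.7% and the pan-neuronal list at 23449 CPM. The 74 nuclei of other classes inside had the endothelial list at 1151 CPM (777 to 1643), with a list UMI in 36.5%. All other nuclei together had it at 284 CPM. Median depth was 308.5 UMIs inside and 297 outside. The clusters were drawn from the same counts, so this split is a description too. A doublet caller, scrublet, marked 4 of 7031 nuclei (0.0569%), none of them endothelial. That share is too low for the caller to have worked, so doublets were neither removed nor assessed.

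The plate nuclei gave a readout that the droplet annotation had not used. Of 232 nuclei, 98 in batch 1 and 134 in batch 2, 7 held at least 9 of the 28 endothelial list genes at 3 or more counts: 2 in batch 1 and 5 in batch 2. They held 9 to 17 of the genes. The other 225 held at most 5, and 142 of them held none. Of the 7, 1 nucleus lay at the threshold of 9, and 3 held 12 or more. The 7 nuclei had 54403 to 431562 counts (median 80856, against 74821 in the others) and a median of 1623 genes against 1572. Slco1a4 was in 4 of the 7 and in 3 of the 225, and Flt1 was in 7 of 7 and in 18 of 225. Both belong to the list that chose the nuclei.

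The 28 droplet genes outside that list were then read in the same plate nuclei. The 7 nuclei held 10 to 21 of them (median 14), and the others held 0 to 13 (median 2), so the groups overlap. By a rule of presence in at least 3 of the 7 nuclei at 4 times the share of the others, 15 of the 28 passed. Over all 15885 genes outside the list the share was 1.67%, and among the 804 genes present in 3 or more of the 7 nuclei it was 33.0%. Some of the 28 were in fewer than 3 of the 7 nuclei, so 15 of 28 is not comparable with 33.0%. The cells of 1 batch are not replicates, so no test was made.

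Lef1 and Gpcpd1, a glycerophosphocholine phosphodiesterase, were in all 7 nuclei. Lef1 ran from 355 to 7205 CPM (median 1573) in the 7, and was present in 7 of the 225 others (3.11%). No nucleus of the 7 lacked it. Gpcpd1 was in 25 of the 225 (11.1%). Igf1r was also in 7 of 7, but in 92 of the 225 (40.9%), and did not pass. Epas1, Pltp, Atp10a, Ccdc141, Prom1 and Tbc1d4 were each in 5 of the 7 and in 4% to 11.1% of the others. Vtn and Jup were in none of the 7 at 3 or more counts.

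The 7 plate nuclei held 0 to 2 mural genes at 3 or more counts (median 2). The other 225 held up to 3 (median 0), so the groups overlap. Of the 15 mural genes, 2 passed the plate rule, beside 1.67% of all genes, and 13 were in none of the 7 at that count, including Pdgfrb, Acta2 and Vtn. Rgs5 was in 4 of 7 (5 of 225 others) and Ebf1 in 6 of 7 (39 of 225). Both were among the 3 mural genes that were high in the droplet class, and the third, Vtn, was not seen. At 7 nuclei, absence allows a gene to be in a large share of such cells.

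**Figure D5:**
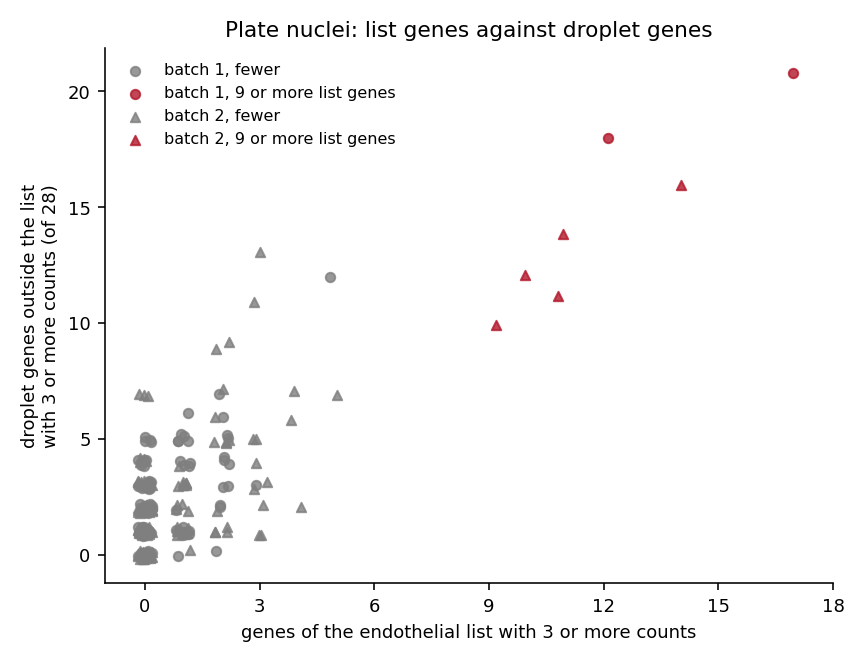
Each point is 1 plate nucleus (circles batch 1, triangles batch 2, jittered by up to 0.2): genes of the endothelial list with 3 or more counts on the horizontal axis, and droplet genes outside that list with 3 or more counts, of 28, on the vertical axis. The 7 red nuclei, with 9 to 17 list genes, hold 10 to 21 of the droplet genes, and the grey nuclei hold up to 13.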

How the data were processed

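The droplet matrix that the authors deposited gives unnormalized UMI counts per gene and nucleus, whole numbers on 19905 genes and 7031 nuclei; per the file headers, its gene table names the reference mm10_premrna. The authors' annotation gives each nucleus its class, its total counts and its fraction of mitochondrial counts, at most 4.99%. Nuclei held 220 to 792 genes, and the gene table counts up to 23828 cells for 1 gene. The deposited SMART-Seq2 tables hold raw counts, which carry no molecular identifiers here. Per the submitters' processing notes, builds hg19 and mm10 were used; aligner and counter: not given in the sources used here. For 131 droplet nuclei the annotated total and the column sum differed by 1 UMI.

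UMIs were summed per class and scaled to CPM. Ratios have exact conditional binomial intervals, levels exact Poisson intervals and shares Clopper-Pearson intervals, all at 95%. A class at 0 was set to 3 counts. The rule for named genes took the 25 largest ratios among higher genes, the 8 smallest among lower genes, the markers, the list members and the 5 genes most like Flt1 over the classes (Pearson's r). Other genes named are those of the 41, and the 4 at 0 UMIs, named after their values were seen. The members and lists were chosen with earlier results of these data known, and the plate comparison after the files had been seen. Clustering used scanpy 1.11.5 (30 principal components, 15 neighbours, Leiden resolution 1). Statistics used Python 3.11.15, numpy 2.4.6, pandas 2.3.3 and scipy 1.17.1, figures matplotlib 3.10.9. The ratio rule was tested on simulated data. GENCODE M21 matched 19833 of the 19905 genes by Ensembl identifier (99.6%). Bulk wells and the plate table of batch 3 were not used here. Alternatives are listed in the closing section.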

Additional observations from a re-analysis of the deposited data

How the results depend on the processing

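No paired analysis was possible because 1 droplet library holds all the nuclei and no test was made. For 34 named genes, 7 settings gave 238 ratios. Apart from Nostrin, these genes were picked for the largest or smallest ratios in the same nuclei. Such ratios could hardly change side in these settings, so nothing is read from the sides kept. The 226 ratios with UMIs in both groups kept their side of equality, 14 of them outside the interval of counting error. The other 12, of 8 genes, have 0 endothelial UMIs and were set at 3. For Me3, Mbtd1, Arnt2, Kcnab1, Tmem132d and Gas7 the ratios so bounded were at most 0.92, below equality; for Rgs5 and Vtn, at 0 by construction, no side is measured. The endothelial list ratio, 18.3, was 14.8 without endothelial nuclei holding a mural UMI and 30.6 with only the endothelial nuclei of the own cluster. The mural list ratio, 8.35, was 5.76 against the unweighted mean of the other classes and 12.2 with only the nuclei of the own cluster. The 41 higher genes became 15 without nuclei holding a mural UMI, 14 of them shared, 31 after thinning, 28 shared, and 37 with only the own cluster, 27 shared. After thinning 40 of the 41 ratios were still 4 or more (Jup was at 3.605), and with only the own cluster all 41 were, so the other lost calls fell under a minimum on UMIs. The 24 lower genes, which rest on 1 to 3 UMIs, became 39 after thinning to 250 UMIs, 38 without the 10% deepest endothelial nuclei, 49 without nuclei holding a mural UMI and 52 with only the own cluster. These settings leave fewer endothelial UMIs. The other planned settings moved neither count by over 1.5 times: the mean of single-nucleus CPM, totals without mitochondrial genes and Malat1, and another or no filter on low UMIs. The share of nuclei was 2.42% among nuclei with at least 250 UMIs; the own cluster held 2.19% of nuclei, but only 80 of its 154 were annotated endothelial, so it gives no endothelial share. The 15 plate genes became 9 with 12 list genes required at 3 counts, where 3 nuclei were left. With 12 required at 10 counts 2 were left, so the rule of 3 nuclei could give only 0; 8 other plate settings, all chosen after seeing the data, gave 11 to 17. Depth also limits the result: with 56597 UMIs in the class, a gene at 0 may be at up to 53.0 CPM.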

Other observations

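Several endothelial factors lay under the minimum of 20 UMIs in the library and had most or much of their UMIs in the 174 endothelial nuclei, which hold 2.17% of all UMIs. Zfp366, a zinc-finger factor, had 6 UMIs in 6 endothelial nuclei and 4 in the other nuclei, a ratio of 67.5 (16.02 to 325). Foxf2, a forkhead factor, had 4 UMIs in 3 endothelial nuclei and 2 elsewhere, a ratio of 90.1 (12.9 to 996). Cyyr1 had 8 UMIs in 7 endothelial nuclei and 5 elsewhere, a ratio of 72.0 (20.8 to 280). They were picked here after their values were seen and support nothing about the class.

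The 4 nuclei of other classes with 3 endothelial list UMIs were annotated ExNeuron1, ExNeuron3, ExNeuron4 and Oligodendrocyte. UMIs of both the endothelial and the mural list were present in 56 nuclei of other classes (0.817%).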
